A study of Drosophila melanogaster and Drosophila yakuba and Drosophila virilis with 6 samples.

Results

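Sox15 (FBgn0005613), teashirt (tsh, FBgn0003866), tiptop (tio, FBgn0028979) and Zn finger homeodomain 2 (zfh2, FBgn0004607) are transcription factor genes of the wing hinge, the ring of disc tissue that joins the future wing blade to the thorax. The 4 genes were selected by identifier, with no threshold on a measured value, though with earlier results of these data known, and are 4 of 7807 genes that could be paired between the species studied, all 4 of them among the 5953 tested across species. RNA was taken from imaginal discs, the larval epithelia that become adult body parts. The groups were eye-antennal and wing discs of wandering larvae in the last larval instar from D. melanogaster (strain CantonS), D. yakuba and D. virilis, the labels giving no strain for the latter pair. Each of the 6 groups is 1 library with no genetic change and no treatment. Transcripts were cut with NlaIII, which recognises CATG, and a short tag beside the cut was sequenced and counted, so a gene is read at 1 or a few positions and its level does not scale with its length.

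In the wing disc, tsh marks the notum and the proximal hinge, and its loss from the distal cells accompanies the founding of the wing blade. Its paralogue tio encodes a zinc finger protein of the same family and can stand in for part of tsh function. zfh2 encodes a protein with both zinc fingers and homeodomains and marks the hinge and the margin of the blade, and Sox15 encodes a Sox (HMG box) factor that restrains wingless expression in the hinge. tsh and tio are also used in the eye field, where tsh acts with homothorax (hth) and eyeless (ey) in the progenitor cells ahead of the morphogenetic furrow. The comparison of the discs therefore sets a tissue that contains a hinge against one that has none but uses part of the same gene set.

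Libraries held 1860370 to 5673047 tags, of which 0.886% to 3.09% lay at positions with no gene. The summed levels of the disc marker lists went with the labels. Over 10 eye-antennal markers (eya and gl among them) the summed level was 1881 to 2556 tags per 1000000 tags of the scaled library (CPM) in the eye-antennal and 60.9 to 201 in the wing libraries. Over the 7 listed wing markers (vg and nub among them) it was 19.6 to 44.3 against 296 to 365. Of the eye-antennal sum, eya alone gave 1321 to 1730 CPM in the eye-antennal libraries. Of these lists, eya, so, ey, toy, lz, sev and B-H2 passed the test across species as higher in the eye-antennal disc, and vg, nub and Dr as higher in the wing disc. The eye-antennal markers gl, ato and dan were not tested across species. In D. yakuba gl had 9 eye-antennal tags against 0 and dan 10 against 1, and ato had no tag in D. virilis. Of the wing markers, bs did not go with the label. Its folds of wing over eye-antennal were 1.21, 0.731 and 0.817 in D. melanogaster, D. yakuba and D. virilis, all with intervals that included 1. Antp and pdm2 were higher in the wing library of each species but did not pass, at edgeR adjusted p of 0.0825 and 0.169. Ubx, with no tag in D. yakuba, was not tested. Of the markers of other tissues, Fbp1 (fat body) passed as higher in the wing and nerfin-1 (neurons) in the eye-antennal disc. The 6 fat body markers summed to 272 to 15956 CPM in the eye-antennal and 9614 to 30779 in the wing libraries, higher in the wing library of each species, with all 6 present in D. melanogaster and D. yakuba and 2 without a tag in both D. virilis libraries. The 7 brain and neuron markers summed to 168 to 308 against 18.9 to 103, higher in the eye-antennal library of each species, with 0 to 2 markers without a tag in the eye-antennal and 2 to 5 in the wing libraries. Summed levels of the 6 listed muscle markers were 157 to 1569 against 83.3 to 2116, higher in the eye-antennal libraries of D. melanogaster and D. yakuba but for D. virilis in the wing library. The 6 myoblast markers summed to 56.8 to 133 against 90.9 to 245. The 5 salivary gland markers summed to 176 against 3026 in D. melanogaster, 230 against 161 in D. yakuba and 1.83 against 0.705 in D. virilis. Of the 3 trachea markers 1 was listed, with 7.90 and 66.9 CPM in D. melanogaster and no tag in the other species. The part of these tissues in the hinge gene values was not tested. In whole discs a lower level cannot be told apart from fewer cells that express the gene.

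Sox15 had the largest disc difference of the 4 genes in each species. In D. melanogaster it had 95 wing tags against 1 eye-antennal tag, with 43 against 0 in D. yakuba, and 596 against 5 in D. virilis. Every wing library was above every eye-antennal library. In CPM the wing level was 54.3 (exact Poisson 95% interval 43.9 to 66.4) in D. melanogaster, 20.4 (14.7 to 27.4) in D. yakuba and 210 (193 to 228) in D. virilis. None of these 3 wing intervals overlapped. In the eye-antennal libraries the level was 0.439 (0.0111 to 2.44) in D. melanogaster and 2.29 (0.744 to 5.35) in D. virilis. The count of 0 in D. yakuba has an exact interval up to 0.652 CPM, and the floor of 3 tags used for folds is 0.530 CPM in that library. These intervals, like all intervals here, cover counting error only, as each group has 1 library.

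tsh was present in both discs and more abundant in the wing disc of each species. Its tags numbered 80 (eye-antennal) and 318 (wing) in D. melanogaster, 303 against 219 in D. yakuba, and 51 against 216 in D. virilis. The order of levels ran from the wing library of D. melanogaster, with 182 CPM (162 to 203), through those of D. yakuba with 104 (90.4 to 118) and D. virilis with 76.1 (66.3 to 86.9), to the eye-antennal libraries of D. yakuba with 53.5 (47.7 to 59.9), D. melanogaster with 35.1 (27.8 to 43.7) and D. virilis with 23.4 (17.4 to 30.7). Neighbours in this order had separate intervals except the last 2 libraries. The libraries of a disc thus did not overlap those of the other disc for tsh. With the main position only, the D. virilis wing level of 49.5 CPM lay below the D. yakuba eye-antennal level of 57.8, and in the genome mapping D. virilis reached 108.7 CPM in the wing disc, against 35.9 for the eye-antennal disc.

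tio showed no common disc pattern. Its eye-antennal and wing libraries held 90 and 51 tags in D. melanogaster, 269 against 110 in D. yakuba, and 38 against 132 in D. virilis. The levels were 39.5 (31.7 to 48.5) and 29.2 (21.7 to 38.3) CPM in D. melanogaster, 47.5 (42.0 to 53.6) against 52.1 (42.8 to 62.8) in D. yakuba, and 17.4 (12.3 to 23.9) against 46.5 (38.9 to 55.1) in D. virilis. The discs overlapped, and each neighbour in the order of the 6 levels overlapped the next. Only D. virilis had separate intervals for its discs.

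Eye-antennal and wing tags of zfh2 numbered 141 and 186 in D. melanogaster, 290 against 219 in D. yakuba, and 78 against 285 in D. virilis. The wing level was 106 (91.6 to 123), 104 (90.4 to 118) and 100.4 (89.1 to 113) CPM in D. melanogaster, D. yakuba and D. virilis, and these 3 intervals overlapped. The eye-antennal level was 61.8 (52.1 to 72.9), 51.3 (45.5 to 57.5) and 35.8 (28.3 to 44.6) in the same order, with overlap between the former pair and none between D. yakuba and D. virilis. All 3 wing libraries were above all 3 eye-antennal libraries in the gene mapping. In the genome mapping, which assigns most D. virilis tags of zfh2 to no position of the gene, the D. virilis wing level was 9.49 CPM and the order across species did not hold. NlaIII sites and gene models differ between species, so a level set across species may reflect the tags a species offers as well as its RNA, which was not tested.

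**Figure D1:**
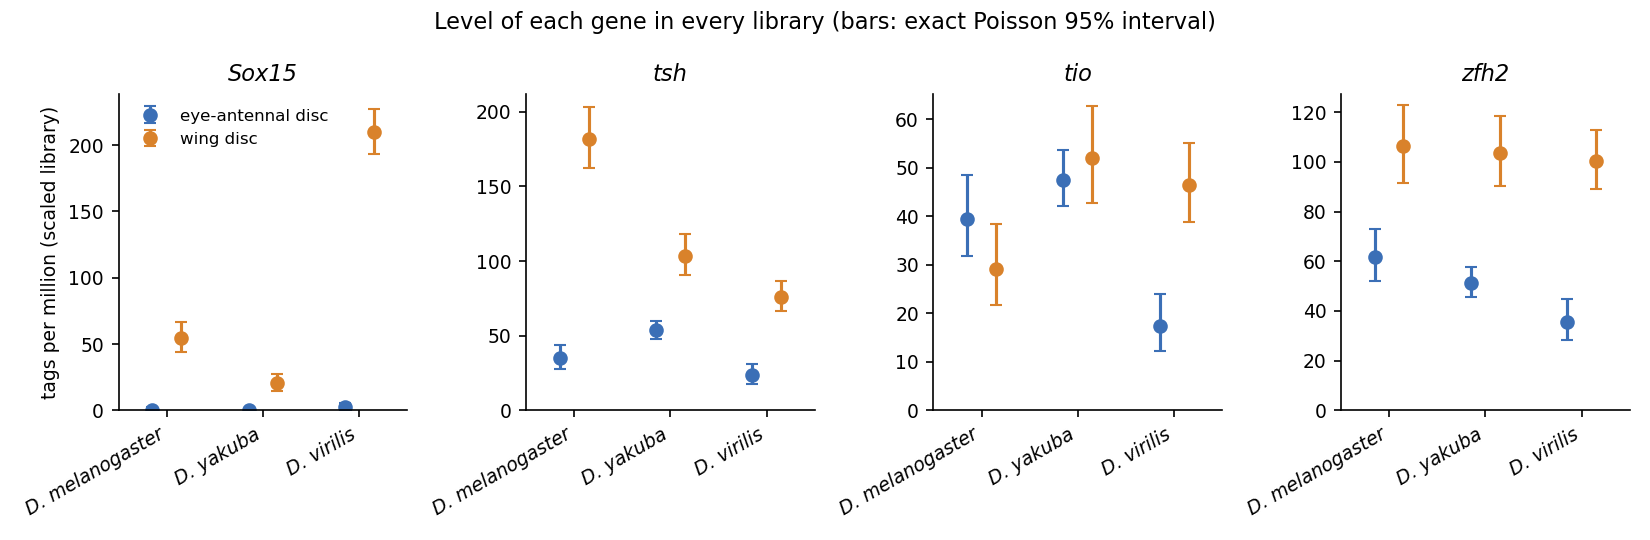
CPM (tags per 1000000 tags of the scaled library, linear axes from 0) for each gene in the eye-antennal (blue) and wing (orange) library of each species, with exact Poisson 95% intervals. Wing points lie above eye-antennal points in every species for Sox15, tsh and zfh2, while for tio the eye-antennal and wing points lie at 39.5 and 29.2, with overlapping intervals, in D. melanogaster and at 17.4 and 46.5 in D. virilis.

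Within a species, the question was how far each gene differed between the discs of a species. Sox15 was 124-fold higher in the wing disc of D. melanogaster (exact conditional binomial 95% interval 21.7 to 4942) and 91.6-fold higher in D. virilis (39.04 to 283). In D. yakuba, with 0 eye-antennal tags, it was at least 38.4-fold higher against a floor of 3 tags per library, and the exact interval had a lower limit of 29.9. The D. melanogaster fold of Sox15 rests on 1 eye-antennal tag, at an offset of -360 bases from the main position along the gene. By the paired positions this tag was on the side opposite the coding strand. With the main position only, or without positions of 1 tag, no eye-antennal tag remained, and the bounds were 34.5-fold and 37.5-fold. tsh was 5.18-fold (4.04 to 6.71) higher in the wing disc of D. melanogaster, 1.94-fold (1.62 to 2.31) in D. yakuba and 3.26-fold (2.39 to 4.51) in D. virilis. For zfh2 the folds were 1.72 (1.37 to 2.16), 2.02 (1.69 to 2.42) and 2.81 (2.18 to 3.66) in the same order of species. For tio the fold of wing over eye-antennal was 0.739 (0.513 to 1.05) in D. melanogaster, 1.096 (0.870 to 1.37) in D. yakuba and 2.67 (1.85 to 3.94) in D. virilis. In the genome mapping, which assigns fewer D. virilis tags to tio and zfh2, their D. virilis log2 folds were 0.56 and 0.51, against 1.40 and 1.48 here.

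Genes were counted for a disc if the whole interval lay at 2-fold or beyond in its favour. By that rule 2 of the 4 genes, Sox15 and tsh, were counted as higher in the wing disc of D. melanogaster, where 6.8% of 8134 measured genes were. Sox15 was counted in D. yakuba, where 3.5% of 8118 genes were. Sox15, tsh and zfh2 were counted in D. virilis, where 4.65% of 8864 genes were. zfh2 was no longer counted there with scaling by total gene tags, with a lower limit of 1.83-fold, or in the genome mapping, with 0.650-fold. None of the 4 was counted as higher in an eye-antennal disc, where 7.97%, 3.66% and 6.76% of genes were. The counts exceeded the background share in each species. They rest on 4 genes chosen with earlier results of these data known, and in D. yakuba on Sox15 alone. The excess therefore only describes these genes.

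**Figure D2:**
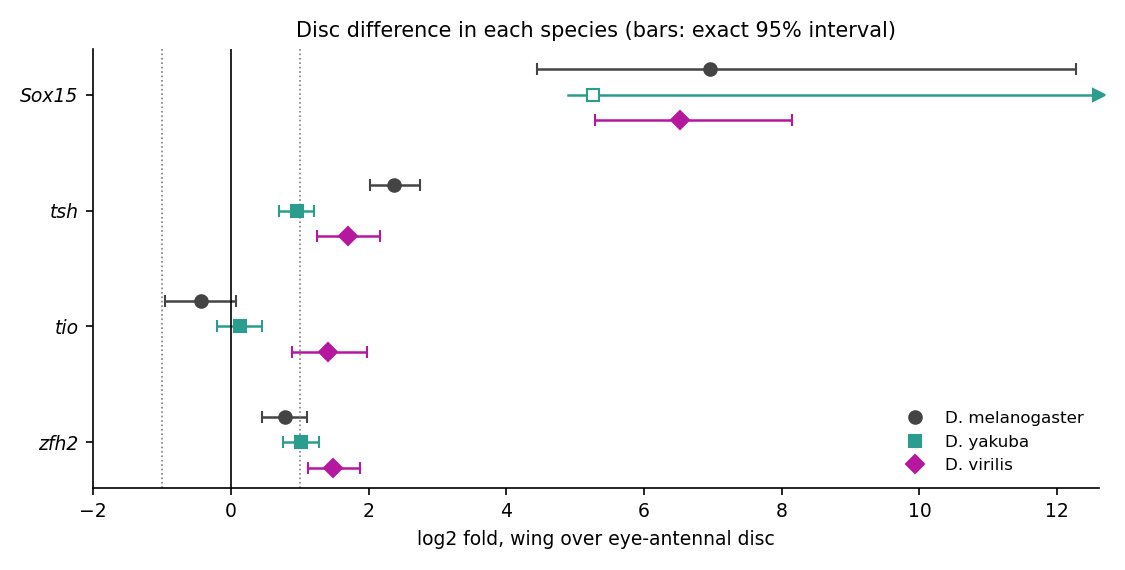
Log2 fold of the wing over the eye-antennal disc for each gene and species, with exact 95% intervals; dotted lines mark 2-fold. The open square for Sox15 in D. yakuba is the bound of 38.4-fold against a floor of 3 tags. Its exact interval starts at 29.9-fold and has no upper end. Sox15 lies apart from the other genes, and tio straddles 0.

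The test across species asked which of these differences exceeded the spread between the species, each species giving 1 pair of discs. Sox15 rose in the wing disc, with an edgeR quasi-likelihood log2 fold of 6.76 (standard error 0.51, adjusted p = 0.00722) and a higher wing level in 3 of 3 species. Its p had rank 3 among 5953 genes, and its log2 fold lay at the 99.98th percentile of all of them. Since 1 library was at 0, the mean log2 fold is given as a bound of at least 6.24, with that library set at the floor of 3 tags. Without species as a block in the edgeR fit Sox15 did not pass, at a log2 fold of 6.70 and an adjusted p of 1, against 1.49e-15 to 0.0293 in the other alternatives. Across all tested genes 0.672% passed the threshold in either direction and 0.185% as higher in the wing disc. At an unadjusted p under 0.05 stood 10.1% of genes, and 3 of the 4 hinge genes, all but tio.

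The other 3 genes did not pass. tsh had a mean log2 fold of 1.67 ± 0.71 (SD, n = 3 species) and an adjusted p of 0.115 in the edgeR fit, with the wing disc higher in 3 of 3 species. With DESeq2 in place of edgeR it passed, at an adjusted p of 0.00329, and in the other alternatives its adjusted p was 0.0762 to 1. zfh2 had a mean log2 fold of 1.09 ± 0.36 (SD, n = 3 species) and an edgeR adjusted p of 0.226, again with the wing disc higher in 3 of 3 species. tio had 0.37 ± 0.94 (SD, n = 3 species) and an edgeR adjusted p of 0.855, with the wing disc higher in 2 of 3 species. Without D. virilis its fitted log2 fold turned to -0.19. By size of the fitted fold tsh lay at the 98.3rd, zfh2 at the 96.2nd and tio at the 74.5th percentile of all tested genes.

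**Figure D3:**
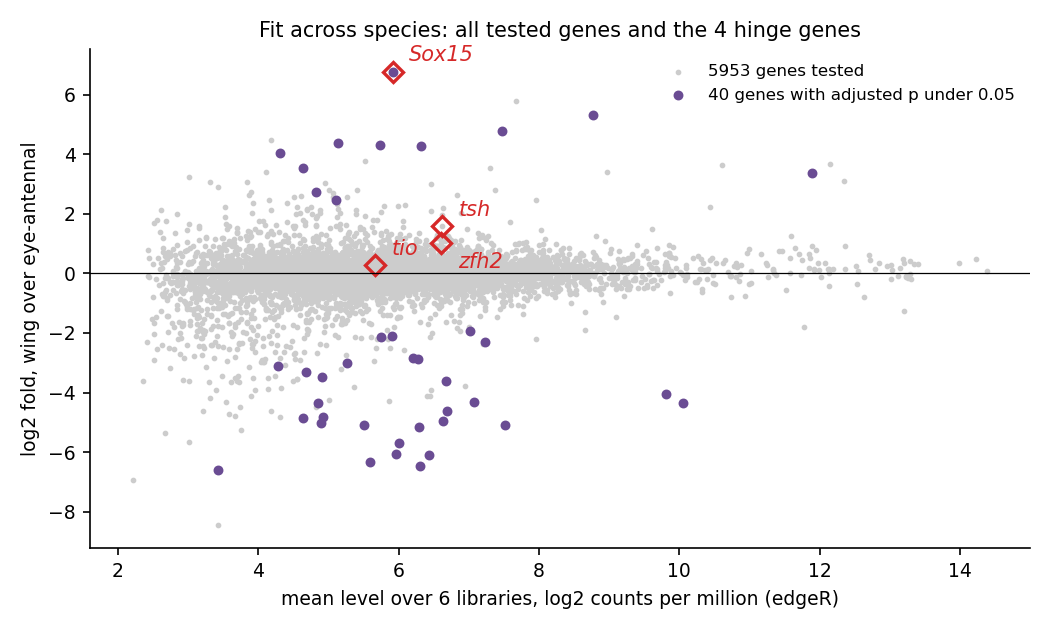
Log2 fold of the wing over the eye-antennal disc from the edgeR fit against the mean level over the 6 libraries, for 5953 genes (grey), the 40 genes with an adjusted p under 0.05 (purple) and the 4 hinge genes (red diamonds). Sox15 stands at 6.76, while tsh, zfh2 and tio lie at 1.59, 1.02 and 0.28, none of them past the threshold.

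The disc folds of the gene mapping differed between species for tsh, tio and zfh2 by more than counting error. For tio the fold of D. virilis was 3.57 times that of D. melanogaster (95% Wald interval 2.17 to 5.86) and 2.41 times that of D. yakuba (1.58 to 3.67). For tsh the fold of D. yakuba was 0.376 times that of D. melanogaster (0.278 to 0.507). For zfh2 the fold of D. virilis was 1.63 times that of D. melanogaster (1.17 to 2.27), and those of D. yakuba and D. melanogaster had a ratio of 1.18 (0.891 to 1.56). For Sox15 the ratio of D. virilis to D. melanogaster was 1.004, with a wide interval of 0.163 to 6.19 that rests on 1 and 5 eye-antennal tags. In the genome mapping the zfh2 ratio of D. virilis to D. melanogaster turned to 0.826 (0.381 to 1.79), and the tio ratio of the same species was 1.98 (1.06 to 3.73). The tio ratio of D. virilis to D. yakuba was 1.35 (0.762 to 2.40) there. With 1 library per group none of these differences has a replicate check.

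The ratio of tsh to its paralogue tio was set beside the disc. In the eye-antennal libraries there were 0.889 tsh tags for each tio tag in D. melanogaster (exact 95% interval 0.649 to 1.21), 1.13 in D. yakuba (0.953 to 1.33) and 1.34 in D. virilis (0.865 to 2.10). In the wing libraries the ratio was 6.24 (4.63 to 8.55) in D. melanogaster, 1.99 (1.58 to 2.53) in D. yakuba and 1.64 (1.31 to 2.05) in D. virilis. The intervals of the discs were separate in D. melanogaster and D. yakuba and overlapped in D. virilis. This ratio is taken within a library and does not depend on the scaling, but it depends on the mapping. In the genome mapping of D. virilis it was 2.75 (1.62 to 4.84) for the eye-antennal and 5.58 (3.99 to 7.99) for the wing tags, and with the main position only 2.60 and 2.84.

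tsh and tio are neighbours in the genome. In the BDGP6 annotation tsh lies at 2L:21828593-21837011 and tio at 2L:22019208-22025734, both on the plus strand. In the coordinates of the deposited files their main tag positions were 188238 bases apart in D. melanogaster, 200984 in D. yakuba, where both are listed on chromosome arm 2R, and 239792 in D. virilis, where both are on scaffold_12963. Other genes with a tag between these main positions, a span that also takes in part of tio, numbered 7, 3 and 18. Their eye-antennal and wing tags came to 20 and 7, 1 and 2, and 85 and 35 in the same order. In the eye-antennal library of D. virilis these 85 tags exceeded the 51 of tsh and the 38 of tio. zfh2 lies on chromosome 4 at 501810-540874 (plus strand) and Sox15 on 2R at 14201390-14212413 (minus strand) in BDGP6. The 3′ part of zfh2 overlaps Tdg, which is on the other strand, and the start of tio overlaps a noncoding RNA gene, lncRNA:CR33987, on the same strand.

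Each gene was read at a few NlaIII positions, and mostly at 1. The main position, that with the most tags over both discs of a species, held 88.4% of the wing tags of Sox15 in D. melanogaster (exact 95% interval 80.2 to 94.1), 81.4% (66.6 to 91.6) in D. yakuba and 97.8% (96.3 to 98.8) in D. virilis. For tsh it held 87.5% and 94.7% in D. melanogaster and 96.04% and 94.98% in D. yakuba (eye-antennal and wing). In D. virilis tsh was spread, with 50.98% and 57.9% at the main position. There, the 3 sites with the most tags gave wing over eye-antennal folds of 3.46 (2.28 to 5.41), 3.35 (1.72 to 7.16) and 2.79 (1.24 to 7.05), so that separate sites of 1 gene gave the same direction.

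tio in D. virilis had no dominant position, with 26.3% and 33.3% of its tags at the main one. Its 3 largest sites had 11 and 46, 16 and 29, and 8 and 45 tags (eye-antennal and wing). Their folds of wing over eye-antennal were 3.21 (1.64 to 6.88), 1.39 (0.732 to 2.75) and 4.32 (2.02 to 10.6). All 3 sites were higher in the wing disc, and the interval of the middle one included 1. In D. melanogaster the main site alone gave tio 0.763 (0.506 to 1.14), and in D. yakuba 1.06 (0.833 to 1.35). The D. melanogaster interval includes 1, and these main sites are different sites. At the D. virilis site placed on the D. melanogaster main site, the middle one of the 3, the interval includes 1 as well.

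zfh2 had a main site with 103 and 155 tags in D. melanogaster and a smaller one 1689 bases further along the gene with 26 and 16 tags (eye-antennal and wing). The main site was 1.96-fold (1.52 to 2.54) higher in the wing disc, whereas the smaller site had a fold of 0.802 (0.402 to 1.55). The smaller site held 18.4% (12.4 to 25.8) of the eye-antennal and 8.60% (4.997 to 13.6) of the wing tags of zfh2. In D. yakuba a site 2220 bases beyond the main one held 7.24% (4.54 to 10.9) and 5.94% (3.20 to 9.94). These sites lie towards the end of zfh2 that Tdg overlaps in the annotation.

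**Figure D4:**
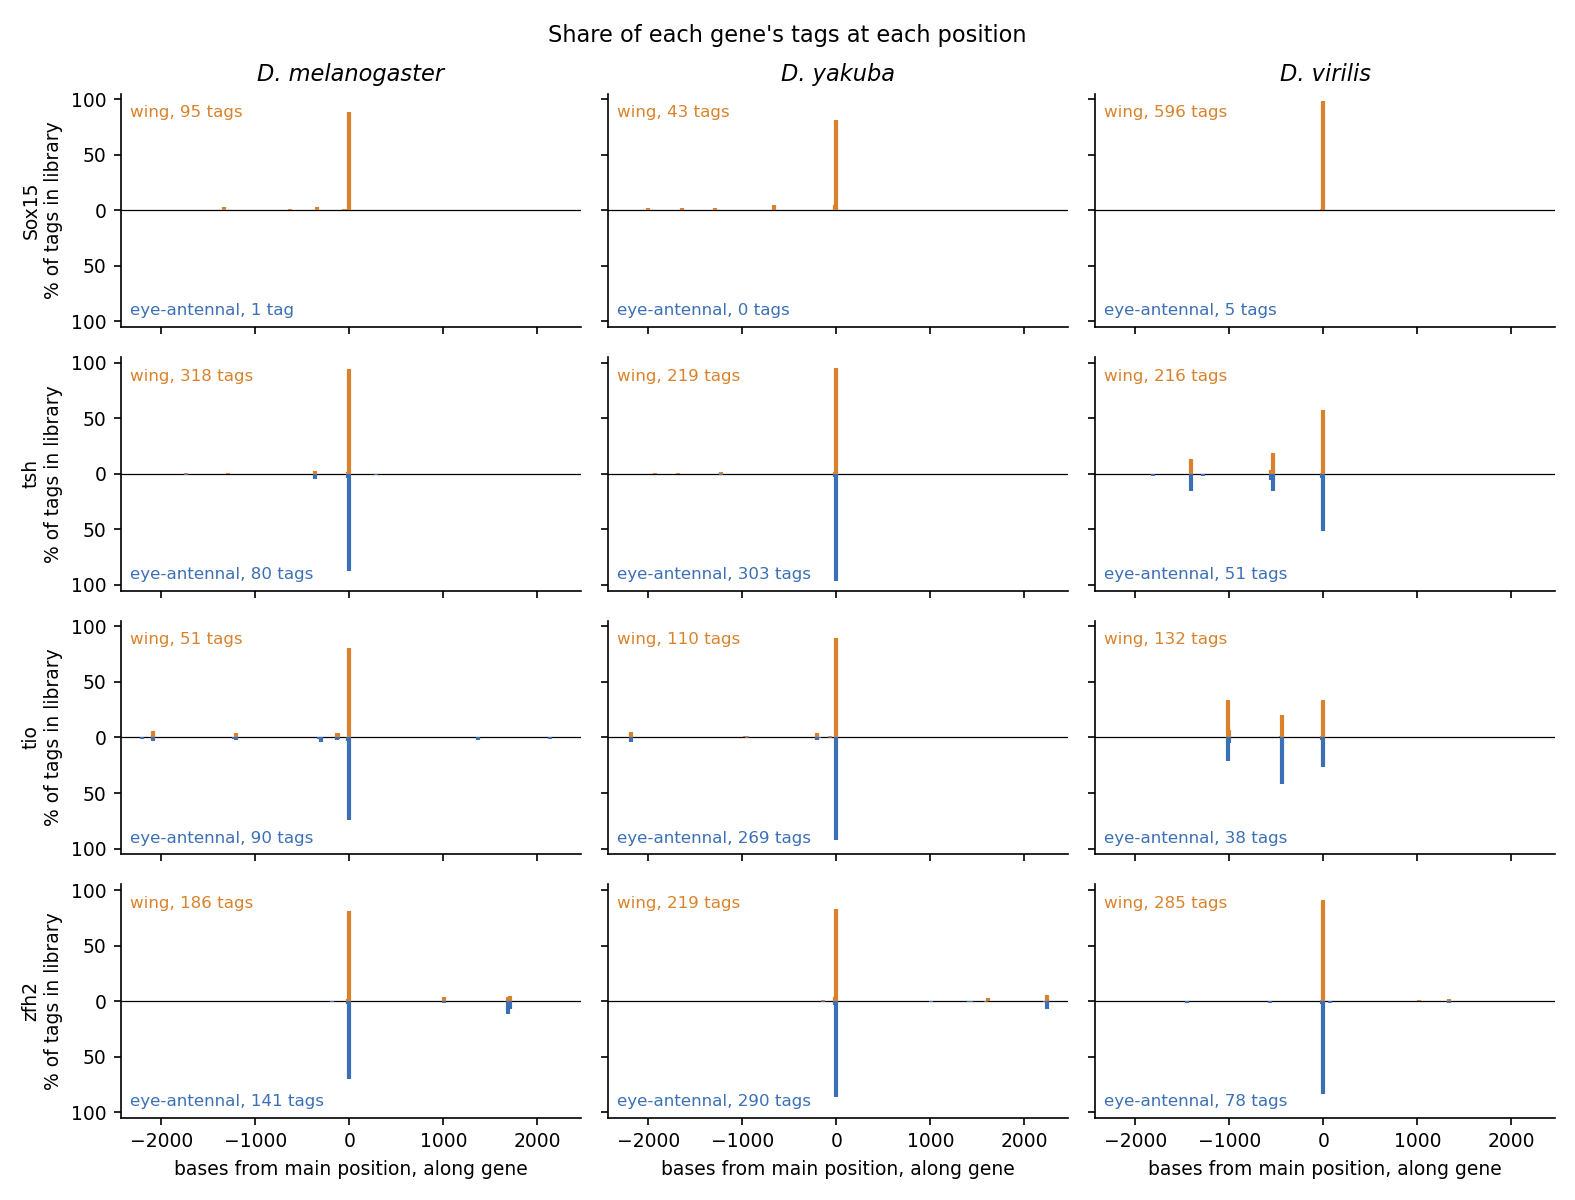
Share of a gene's tags at each position in the wing (orange, upwards) and eye-antennal (blue, downwards) library, against the distance in bases from the main position in the direction of the gene. Of 133 positions 38 lie more than 2500 bases away and are not drawn, with 72 of 3816 tags in all, and the eye-antennal shares of Sox15 are not drawn because no library had more than 5 tags. One position dominates except for tsh and tio in D. virilis.

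Some positions came in pairs 18 bases apart, which is the spacing of the tags on either side of 1 CATG when each spans 22 bases. Of neighbouring positions at most 30 bases apart in a library, 82.7% to 90.8% were 18 apart. At such pairs within the 4 genes 3137 of 3272 tags, or 95.9% (95.1 to 96.5), were on the side that reads the coding strand. This share pools genes, species and libraries. For tio in D. yakuba 7 eye-antennal and 5 wing tags were on the opposite side, against 2 and 1 on the coding side. For zfh2 in D. melanogaster the tags on the opposite side came to 20 eye-antennal and 12 wing tags, against 111 and 167 on the coding side. The smaller zfh2 site held 16 of those 20 and 7 of those 12. A further 544 tags lay at positions without a partner, the main position of tio in D. yakuba among them, and their side is not known.

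The genome mapping, which places tags of D. yakuba and D. virilis on D. melanogaster coordinates, shows which sites are shared. The main tsh position of D. yakuba was placed on that of D. melanogaster, at 21836938 on 2L in the files' coordinates. That of D. virilis was placed upstream of it, at 21836608. For Sox15 the main position of D. virilis fell on that of D. melanogaster, at 10089228 on 2R, and that of D. yakuba at 10089270. For tio the main position was at 22025176 in D. melanogaster, and that of D. yakuba was placed at 22025237. A D. virilis site with 16 and 29 tags was placed at 22025176. For zfh2 the main position was at 558960 on chromosome 4 in D. melanogaster and was placed at 558836 in D. yakuba, while that of D. virilis had no D. melanogaster position. The positions listed for Sox15 and zfh2 lie outside their BDGP6 spans, so the files' coordinates are not those of that annotation. The wing-over-eye-antennal direction of Sox15, tsh and zfh2 was thus read in part from different sites in different species.

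A list of 36 hinge and proximal wing genes, written with earlier results of these data known, put these 4 beside their neighbours in the tissue. The identifiers of 32 were in the files, and 23 had enough tags for the test across species. Of these, 4 rose in the wing disc and 0 in the eye-antennal disc, against 0.185% and 0.487% of all genes tested. Dr, vg and nub also stand among the wing markers. Besides Sox15 they were Dr, a homeobox gene, vg, the selector gene of the wing blade, and nub, a POU factor gene of the blade and hinge. The median log2 fold of the 23 genes was 0.96, and 18 were above 0, whereas the median of all tested genes was -0.02 and 48.6% were above 0. The within-species rule was also applied to the list, in D. melanogaster, D. yakuba and D. virilis. It counted 6 of 31, 6 of 27 and 11 of 27 measured genes for the wing disc. For the eye-antennal disc it counted 3 (ara, lbl and Lim1), 0 and 1 (Lim1). In D. virilis ara was counted for the wing disc. Over all measured genes the shares were 6.8%, 3.5% and 4.65% for the wing and 7.97%, 3.66% and 6.76% for the eye-antennal disc. The comparison with all genes describes a list chosen in this way and was not a test of it.

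Dr rose by 4.35 ± 0.41 (SD, n = 3 species) on the log2 scale, with an edgeR adjusted p of 0.00722. vg rose by 4.05 ± 1.02 (SD, n = 3 species), with an edgeR adjusted p of 0.0405. nub, with 0 eye-antennal tags in D. yakuba, rose by at least 4.33 against the floor of 3 tags. Its edgeR adjusted p was just under the threshold of 0.05. With the main position only, Dr, vg and nub did not pass, and Sox15 alone of the list did. In the genome mapping Dr and Sox15 passed, and without the species block no list gene did. vg did not pass without D. yakuba or without positions of 1 tag, and nub not without D. melanogaster or with DESeq2 size factors. The list genes with the most tags that did not pass were noc, a zinc finger gene of appendage development, at -0.22 ± 0.51 (SD, n = 3 species), hth, a homeobox gene that acts with tsh, at -0.25 ± 0.16 (SD, n = 3 species), and fj, a Golgi kinase gene of growth and polarity, at -0.13 ± 0.89 (SD, n = 3 species). exd, the partner of hth, was not tested because D. virilis had no tag paired with it. It was 1.32-fold (1.18 to 1.46) higher in the wing disc of D. melanogaster and 1.05-fold (0.960 to 1.15) in D. yakuba.

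**Figure D5:**
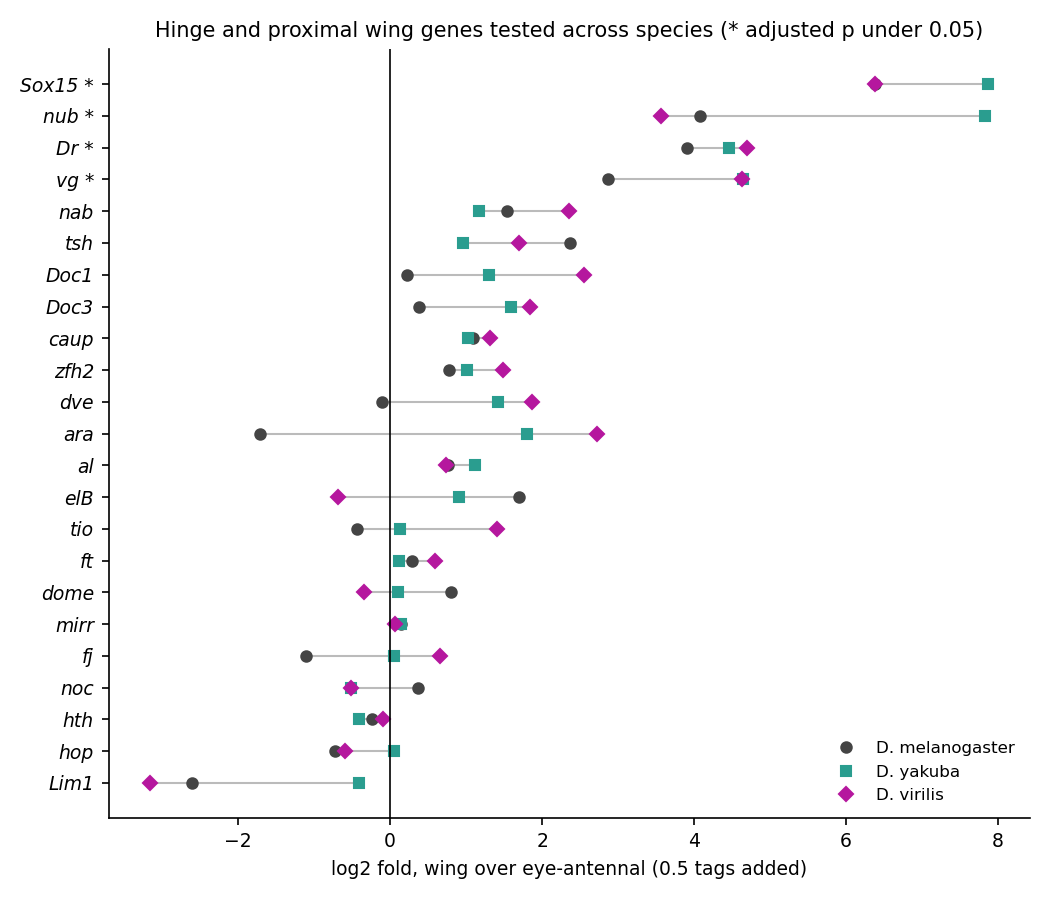
Log2 fold of the wing over the eye-antennal disc in each species (points, 0.5 tags added) for the 23 hinge and proximal wing genes tested across species, ordered by their mean, with a grey line over the range. Asterisks mark the 4 genes with an adjusted p under 0.05, of which Sox15 has the largest mean at 6.87, while tsh, zfh2 and tio have means of 1.67, 1.09 and 0.37.

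Of 8 Sox family genes 6 were tested, Sox15 rose in the wing disc and 0 rose in the eye-antennal disc. Over all genes tested the shares were 0.185% and 0.487%. The median log2 fold of the 6 was -0.16, against -0.02 for all genes tested. The Sox gene D (Dichaete), known for its part in the nervous system, had -3.18 ± 0.67 (SD, n = 3 species) and an edgeR adjusted p of 0.0528. Sox14, an ecdysone-induced Sox gene, had 0.29 ± 0.60 (SD, n = 3 species), Sox102F -0.50 ± 1.35 (SD, n = 3 species) and Sox21b -2.46 ± 1.33 (SD, n = 3 species). Sox100B, named here after its values were seen, had more wing than eye-antennal CPM in 3 of 3 species, with 14 against 0 tags in D. yakuba, a fitted log2 fold of 2.14 and an edgeR adjusted p of 0.592. zfh1, which shares the zinc finger and homeodomain make-up of zfh2 and is also a marker of myoblasts, was 3.39-fold (2.42 to 4.84) higher in the wing disc of D. melanogaster, and had under 10 paired tags in each of the other species.

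Of 9 genes listed as partners of tsh in the eye field 8 were tested, and 4 of the 9 (ey, toy, eya and so) also stand among the eye-antennal markers. Of the 8, 5 rose in the eye-antennal disc and 0 in the wing disc, against 0.487% and 0.185% of all genes tested. The median log2 fold of the 8 was -2.51, against -0.02 for all genes tested. eya had -4.27 ± 0.60 (SD, n = 3 species), so -2.82 ± 0.72 (SD, n = 3 species) and Optix -2.09 ± 0.51 (SD, n = 3 species). toy had -6.29 ± 2.22 (SD, n = 3 species), and ey, with 0 wing tags in D. virilis, -5.91 or lower against the floor of 3 tags. dac, with -2.13 ± 0.77 (SD, n = 3 species) and an edgeR adjusted p of 0.0893, and yki, the effector of the Hippo pathway, with -0.08 ± 0.20 (SD, n = 3 species), did not pass. All 3 eye-antennal libraries nonetheless held tags of tsh, at 23.4 to 53.5 CPM, and of tio, at 17.4 to 47.5.

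Likeness of pattern was measured as the root mean square difference of log2(CPM + 1) over the 6 libraries, after each gene was centred on its own mean, among 5571 genes with at least 10 tags in each species. Nearest to Sox15 were vg at 1.12 (Pearson r = 0.98, n = 6 libraries), nub at 1.24 (r = 0.91) and Antp, the Hox gene of the thorax, at 1.36 (r = 0.90). Nearest to tsh were Rcc1, the exchange factor of the Ran GTPase, at 0.27 (r = 0.998), l(1)G0020 at 0.36 (r = 0.94) and caup, a homeobox gene of the Iroquois complex, at 0.39 (r = 0.95). Nearest to tio were ics at 0.21 (r = 0.94), senju at 0.22 (r = 0.94) and Ptp99A, a receptor tyrosine phosphatase gene, at 0.22 (r = 0.93). Nearest to zfh2 were tos, an exonuclease gene, at 0.13 (r = 0.99), Echs1 at 0.19 (r = 0.95) and Lsd-2, a lipid droplet protein gene, at 0.20 (r = 0.95). The 6 points share species and disc, so the r values only describe these libraries. Among the 4 genes themselves tsh and zfh2 were closest, at 0.51 (r = 0.89), followed by tio and zfh2 at 0.52 (r = 0.57), and Sox15 and tio were farthest apart, at 2.80 (r = 0.15).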

How the data were processed

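The deposited files list tag counts by position, each with a gene where the authors assigned one, per the file headers. Bowtie 0.12.1 is named in the submitters' processing notes, while the sources used here do not give mismatches, multiple matches, filters or builds. The values are whole numbers with unequal totals and were read as raw counts. Counts were summed per gene from the gene mapping, without positions that have no gene. Libraries of a species were scaled by TMM factors of 0.918 to 1.09, and CPM refers to these scaled sizes. Folds come with exact conditional binomial (Clopper-Pearson) intervals and levels with exact Poisson intervals, both at 95%. These intervals cover counting error only. They treat tags as independent molecules, which PCR copies are not, so they may be too narrow even for that. Genes with at least 10 tags in a species were compared, and 0.5 tags were added for log2 folds. No test was made within a species.

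Across species, edgeR 4.0.16 (R 4.3.3) quasi-likelihood tests were fitted to 6 libraries over all paired genes kept by filterByExpr (minimum count 10), with species as a block, 2 residual degrees of freedom and Benjamini-Hochberg adjustment at 0.05. Standard errors were taken from the F statistic. The species is the replicate, which measures spread between species, and the labels do not say how many animals a library holds. DESeq2 1.42.0 was an alternative. The fit was tested on simulated data. Of 12681 D. melanogaster identifiers 92.7% had a symbol. Strand was inferred from paired positions, the strand in BDGP6.54 and, in D. yakuba and D. virilis, the order of placed positions. The members and lists were chosen with earlier results of these data known. Genes were named if they were one of the 4, passed the threshold in a list, were among the 4 others with the most tags in a list, or among the 3 most alike a member.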

Additional observations from a re-analysis of the deposited data

Results flagged for a closer look

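The log2 fold of tio lay on opposite sides of 0 in 2 species. For the wing over the eye-antennal disc it was -0.431 in D. melanogaster and 1.403 in D. virilis. The D. melanogaster fold of 0.739 (0.513 to 1.05) includes 1, so a lower wing level is not shown there with the main scaling. With scaling by total gene tags the D. melanogaster fold was 0.665 (0.462 to 0.947), which excludes 1, so this reading depends on the scaling. In the genome mapping the D. virilis fold of 1.49 (0.854 to 2.69) includes 1. The counting interval of the difference excluded 0 in both mappings, but the difference was not tested with replicates, as each group has 1 library.

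Some tags outside the gene mapping were placed on these genes by the genome mapping alone, above the floor of 3 tags. For tsh a D. virilis position had 4 eye-antennal tags and 14 wing tags, at an offset of -10066 bases from its main position along the gene, and has no gene in the gene mapping. For zfh2 a D. yakuba position had 7 tags in the eye-antennal library, and the gene mapping gives it to the gene paired with Tdg. For zfh2 a D. virilis position had 4 tags in the wing library, and the gene mapping gives it to a gene without a D. melanogaster pair.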

How the results depend on the processing

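Within species, 58 of 60 alternative log2 folds of the 4 genes stayed inside the main counting interval. The exceptions were tio and zfh2 in D. virilis, 0.56 and 0.51 in the genome mapping, which gives 91 of 132 and 271 of 285 wing tags of the gene mapping to no position of the gene. Scaling by total gene tags shifted every log2 fold by -0.15, -0.06 and -0.25 in D. melanogaster, D. yakuba and D. virilis. With that scaling zfh2 was no longer counted in D. virilis and the tio interval of D. melanogaster excluded 1. Both log2 folds nonetheless stayed inside their main intervals. For Sox15 the main log2 interval was wide, 4.44 to 12.3 in D. melanogaster and with no upper end in D. yakuba, so staying inside says little. Across species Sox15 passed the threshold in every alternative except that without the species block, where its log2 fold was 6.70 at an edgeR adjusted p of 1, and 0 genes passed, 0 of the 4 and 0 of the hinge list among them (128 at an unadjusted p under 0.05). For Sox15 the adjusted p in the other alternatives was 1.49e-15 (DESeq2) to 0.0293. No other paired analysis applies, since the labels number no replicates. DESeq2 called tsh, at a log2 fold of 1.61, and so 2 of the 4 genes, with 1 hinge gene higher in the eye-antennal disc. Leaving out a species gave log2 folds of 6.48 to 7.44 for Sox15, 1.22 to 1.96 for tsh, -0.19 to 0.65 for tio and 0.84 to 1.16 for zfh2. The hinge list had 2 genes higher in the wing disc in the genome mapping and 1 with the main position only. Over all genes, the wing count was 11 and the eye-antennal count 29. These became 7 and 17 with DESeq2 size factors, 4 and 5 with the main position only, 7 and 8 without positions of 1 tag, 22 and 82 without a filter, 69 and 136 with DESeq2, and 0 and 0 without the block. The genome mapping gave 6 in the wing disc, and a filter on the model, chosen after seeing the data, gave 44 in the eye-antennal disc. Leaving out a species gave wing counts of 8 to 33 and eye-antennal counts of 24 to 97. Levels in CPM left the main interval in 15 alternatives. The cause of these shifts was not tested.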
